A study of Mus musculus with 24 samples.

Results

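The retina was compared with 2 visual brain regions of the same mouse model, the suprachiasmatic nucleus (SCN), which receives retinal input for the daily clock, and the lateral geniculate nucleus (LGN), the thalamic relay between eye and visual cortex. These were 9 of the 24 arrays of the series, chosen by their tissue labels alone, with 3 arrays each of retina, SCN and LGN. Male C57BL/6J mice were normal and untreated (Control), wore a 0D lens, or wore a lens of minus 30 diopters on the right eye for 3 weeks from 3 weeks of age (Lens-induced), and each tissue had 1 array from each lens group. The methods describe RNA of 3 mice mixed per array for the ocular tissues of the normal and minus 30 diopter groups, and pooling of the SCN, LGN and 0D samples was not given in the sources used here. The 3 arrays of a tissue were therefore the 3 lens groups, so that every p-value below measures the spread between lens groups around a tissue difference, and lens wear itself was not tested here. Undetected values were set to a common floor before testing, and arrays at that floor add no spread of their own to a p-value. Each lens group had 1 array of each of the 8 tissues, and tissues were compared within lens groups. The labels name no slide or other batch, so one shared by the arrays of a lens group could not be told apart from that group.

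MicroRNAs (miRNAs) are short RNAs that are cut from hairpin precursors and repress messenger RNAs whose sequence pairs with the seed, the stretch near the 5′ end of the miRNA. Neighbouring hairpins are often transcribed together, and related miRNAs share a seed and hence many predicted targets. Retina and brain both develop from the neural tube and share neuronal miRNAs, whereas photoreceptors and other sensory cells are known for the miR-183, miR-96 and miR-182 cluster, and white matter for the miRNAs of oligodendrocytes, a cell type that the mouse retina lacks.

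Mature sequences below are from RefSeq (GRCm38.p6), in which 236 of the 279 miRNAs tested had an entry, and capitals mark the seed, bases 2 to 8. The first set holds the miRNAs by which retina stood highest above brain and the families to which they belong, and shows how close the family members are to each other. The hairpins of miR-183, miR-96 and miR-182 lie on the minus strand at chr6:30165962-30169732 within Mirc35hg. The hairpins of miR-204 and miR-211 lie in Trpm3 and Trpm1, at chr19:22750610-22750631 and chr7:64205831-64205852 on the plus strand, and miR-210 lies at chr7:141221407-141221428 on the minus strand.
mmu-miR-183-5p: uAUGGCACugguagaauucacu
mmu-miR-96-5p: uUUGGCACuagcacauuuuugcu
mmu-miR-182-5p: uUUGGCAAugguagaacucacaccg
mmu-miR-210-3p: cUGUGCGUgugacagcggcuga
mmu-miR-204-5p: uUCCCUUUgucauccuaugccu
mmu-miR-211-5p: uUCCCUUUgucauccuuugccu
mmu-miR-181a-5p: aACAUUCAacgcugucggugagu
mmu-miR-181b-5p: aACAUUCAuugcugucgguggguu
mmu-miR-181c-5p: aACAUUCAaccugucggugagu
mmu-miR-181d-5p: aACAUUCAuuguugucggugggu
mmu-miR-92a-3p: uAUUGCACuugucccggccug
mmu-miR-25-3p: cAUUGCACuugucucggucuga

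The second set holds miRNAs that were higher in SCN and LGN, or in one of these regions, and the miR-29 pair in which retina and brain were ordered oppositely. The hairpin of miR-137 lies at chr3:118433901-118433923 on the plus strand outside any annotated gene, and those of miR-434 and miR-410 lie on the plus strand at chr12:109594565-109594586 in Rtl1 and at chr12:109743764-109743784 in Mirg. miR-128-3p comes from a hairpin in R3hdm1 on chromosome 1 and one in Arpp21 on chromosome 9.
mmu-miR-137-3p: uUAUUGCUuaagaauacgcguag
mmu-miR-128-3p: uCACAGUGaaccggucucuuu
mmu-miR-219a-5p: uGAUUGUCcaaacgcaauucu
mmu-miR-34b-5p: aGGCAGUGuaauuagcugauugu
mmu-miR-410-3p: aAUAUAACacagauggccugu
mmu-miR-434-3p: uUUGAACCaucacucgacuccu
mmu-miR-7a-5p: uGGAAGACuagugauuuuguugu
mmu-miR-7b-5p: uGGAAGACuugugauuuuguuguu
mmu-miR-29b-3p: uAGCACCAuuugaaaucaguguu
mmu-miR-29c-3p: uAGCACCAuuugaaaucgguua

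The third set holds miRNAs that retina shared with brain and that were far lower in the rest of the eye. The miR-9 arms come from the same hairpins at 3 loci, on chromosomes 13, 3 and 7.
mmu-miR-9-5p: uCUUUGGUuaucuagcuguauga
mmu-miR-9-3p: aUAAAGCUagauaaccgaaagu
mmu-miR-129-2-3p: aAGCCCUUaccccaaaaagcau

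Of the 1881 mouse miRNAs on the array, 306 were detected on at least 1 of the 9 arrays and 222 to 249 on each single array. A miRNA was called detected where at least 1 of its probes gave a signal above 3 times the scanner's error, and its level was the sum of such probes, scaled so that the arrays shared 1 upper quartile. No spot of a miRNA probe was saturated. Levels are therefore in arbitrary scaled signal units, in which arrays can be compared for a miRNA, but not one miRNA with another. Across the 173 miRNAs detected on all 9 arrays, the log2 levels of arrays correlated at 0.995 to 0.998 within retina, 0.987 to 0.993 within SCN, 0.982 to 0.991 within LGN, 0.895 to 0.964 between SCN and LGN, 0.814 to 0.833 between retina and LGN, and 0.739 to 0.771 between retina and SCN. These values describe likeness across miRNAs, which are not independent replicates. The marker lists were chosen with earlier results of these data known, so they describe the tissues and are no independent check of the labels. The retina arrays held the sensory cluster at sums of 14545 to 16225 scaled signal units. The SCN arrays held at most 8.21 and the LGN arrays at most 3.97. Of 5 listed oligodendrocyte miRNAs, 2 were undetected on all 9 arrays. The 3 tested were all higher in brain, beside 50.9% of all miRNAs tested. Of these, mmu-miR-219a-2-3p was undetected in retina and could therefore only be higher in brain. All 19 neuronal miRNAs tested were higher in the 3 neural tissues together than in the other ocular tissues, where 38.4% of 352 miRNAs were. Most of the neural arrays were of brain, so this does not describe the retina by itself. There mmu-miR-137-3p and mmu-miR-383-5p were undetected, and mmu-miR-218-5p was at 10.9 to 16.2 against 72.5 on the 0D lens array.

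Most miRNAs differed between retina and brain. Of 279 miRNAs detected on at least 3 of the 9 arrays, 93 were higher in retina (33.3% of those tested) and 142 were lower (50.9%) in limma's moderated test with the lens group as a block and a Benjamini-Hochberg adjusted p under 0.05, and 44 passed in neither direction. The median log2 difference, retina minus the mean of SCN and LGN, was -0.40 over those tested, with a median standard error of 0.12. Counted strictly, 36 miRNAs were over 2-fold higher and 53 over 2-fold lower in retina in all 6 pairs of retina and brain arrays of the same lens group. Undetected values stood at the common floor in these pairs, so that both counts depend in part on it. By detection alone, 15 miRNAs were measured on all 3 retina arrays and on no brain array, and 20 on all 6 brain arrays and on no retina array. The scaling sets where 0 lies, since without any scaling between arrays the median rose by 0.40 and the counts were 109 higher and 113 lower, with 204 of the 235 calls kept and none called in the opposite direction.

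**Figure D1:**
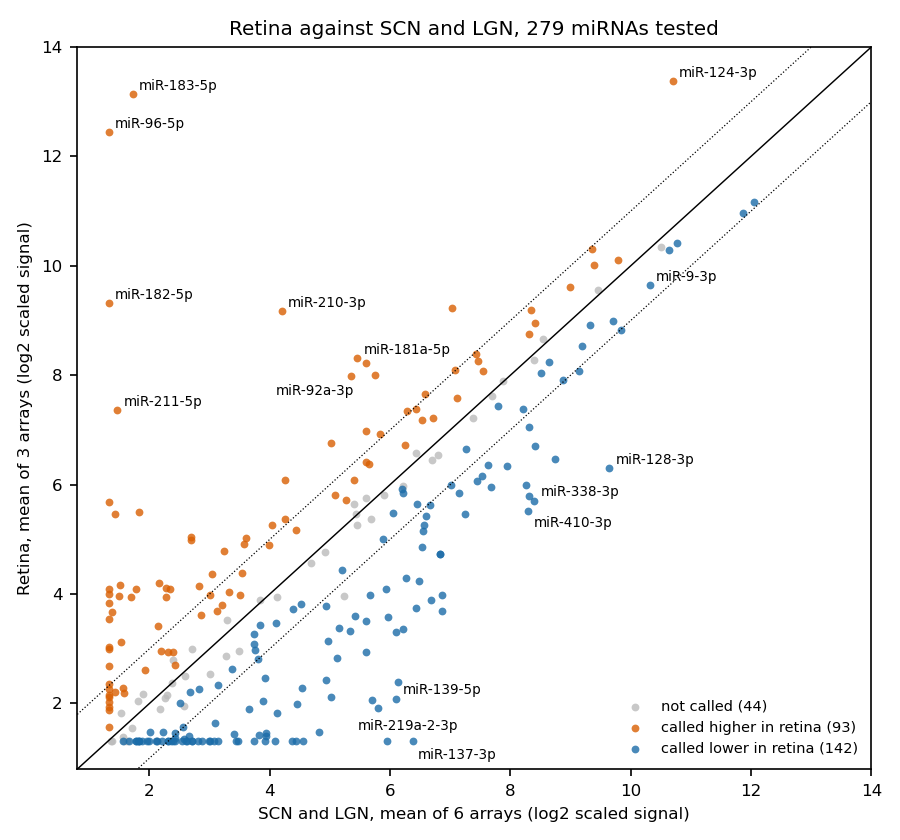
Mean log2 scaled signal on the 3 retina arrays (y axis) against that on the 6 SCN and LGN arrays (x axis) for the 279 miRNAs tested, coloured by whether retina was higher, lower or not called at an adjusted p under 0.05, with dotted lines at 2-fold. Points far above the diagonal at the left are the sensory cluster and miR-211-5p, points below it include miR-128-3p and miR-137-3p, and undetected values lie at the common floor of 2.50 scaled signal units.

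The cluster of miR-183, miR-96 and miR-182, expressed in photoreceptors, hair cells and other sensory cells, was the clearest mark of the retina. mmu-miR-183-5p was at 9710, 8510 and 8906 on the Control, 0D and Lens-induced retina arrays (every triplet below follows this order). It was detected in brain on the Control arrays only, at 8.21 ± 1.86 (scanner error) in SCN and 3.97 ± 1.03 in LGN, so that the lowest retina array was far above the highest brain array. With the other 4 brain arrays set to the floor, the fitted log2 difference was 11.42 ± 0.25 (SE, n = 3 retina and 6 brain arrays, adjusted p = 1.93e-08 in limma), a size and a p-value that depend on that floor. mmu-miR-96-5p was at 5739, 6105 and 5009 in retina and mmu-miR-182-5p at 721, 621 and 583. Neither was detected on any brain array, and both groups of arrays were apart without overlap. Retina was at least 757-fold higher for mmu-miR-96-5p and at least 88.2-fold higher for mmu-miR-182-5p, where the bound sets the retina mean against the lowest signal detectable on the brain arrays. The other strand, mmu-miR-183-3p, was at 55.2, 52.6 and 47.2 in retina and undetected in brain, at least 7.12-fold higher, and the -3p arms of miR-96 and miR-182 were undetected on all 9 arrays. The 3 mature miRNAs are related but not alike: miR-183-5p and miR-182-5p differ at 4 of the first 22 bases, miR-183-5p and miR-96-5p at 9 of 22, and miR-96-5p and miR-182-5p at 11 of 23. The sensory cluster was also measured outside the retina in the eye. mmu-miR-183-5p was at 520 to 900 on the 3 choroid arrays and at 253 to 658 on the 3 sclera arrays, tissues that adjoin the retina. It was also at 76.9 to 268 on the lens arrays, at 76.1 to 88.1 on the cornea arrays and at 10.6 to 19.3 on the iris arrays. Whether retinal RNA had a part in any of these arrays was not tested.

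mmu-miR-210-3p, known as the main miRNA induced by hypoxia, was the miRNA highest above brain by log2 difference among those measured on all 9 arrays. It was at 676, 514 and 560 in retina, at 24.3, 9.27 and 12.7 in SCN, and at 19.6, 22.5 and 30.2 in LGN. Every retina array was far above every brain array, and the log2 difference was 4.98 ± 0.26 (adjusted p = 9.01e-07 in limma). Retina was also the tissue of highest signal in the eye, since none of the 15 other ocular arrays exceeded 316. The 3 neural tissues together were nevertheless below the other ocular tissues, by -0.51 on the log2 scale (adjusted p = 7.82e-04), with the low SCN and LGN arrays as 6 of the 9 neural arrays.

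The neuronal miR-124, the most studied miRNA of differentiated neurons, was present in all 3 tissues and far higher in retina. mmu-miR-124-3p was at 11409, 10441 and 10202 in retina, at 1500, 1396 and 1427 in SCN, and at 1627, 2111 and 2032 in LGN. The log2 difference was 2.69 ± 0.12 (adjusted p = 3.95e-07 in limma), with no overlap. The passenger strand mmu-miR-124-5p was at 44.1, 50.6 and 38.7 in retina and was detected on only 1 brain array, LGN of the 0D group, at 3.77. Both arms of the hairpin thus lay on the same side, and for mmu-miR-124-5p no size of the difference is given, since 5 of the 6 brain arrays were at the floor. As for the sensory cluster, mmu-miR-124-3p was measured in the rest of the eye, and reached 985 on a choroid array and 587 on a sclera array. On the lens arrays it was at 105, 309 and 390, and on the cornea and iris arrays at no more than 33.4.

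All 4 tested miRNAs with the seed ACAUUCA, the -5p members of the miR-181 family, were higher in retina, beside the background of 33.3%. The other family member tested, mmu-miR-181a-1-3p, is an arm without this seed. It was also called higher but was not detected on all 9 arrays. The -5p members split into a strong and a weak pair. mmu-miR-181a-5p was at 328, 339 and 293 in retina, at 36.4, 34.5 and 25.7 in SCN, and at 48.1, 65.8 and 69.8 in LGN, a log2 difference of 2.86 ± 0.16 (adjusted p = 1.38e-06 in limma). mmu-miR-181b-5p gave nearly the same picture, with 328, 302 and 273 in retina, at most 37.4 in SCN and at most 82.1 in LGN, and a log2 difference of 2.63 ± 0.14. In contrast, mmu-miR-181c-5p was at 90.5, 87.1 and 78.8 in retina against 65.6, 69.2 and 76.9 in SCN and 30.5, 34.3 and 35.5 in LGN. Its log2 difference was 0.82 ± 0.11, which passed the test against both regions together and against LGN but not against SCN alone (adjusted p = 0.0678). mmu-miR-181d-5p, at 16.1, 16.1 and 10.4 in retina, overlapped the 12.2 to 13.2 of SCN, and its log2 difference of 0.60 ± 0.16 (adjusted p = 0.00883) was lost against SCN alone and with the Control or 0D retina array left out. The strong pair comes from hairpins side by side at chr1:137966468-137966673 and on chromosome 2, and the weak pair from hairpins on chromosome 8. In SCN against LGN the pairs were ordered oppositely: mmu-miR-181a-5p and mmu-miR-181b-5p were lower in SCN, by -0.92 and -1.12 on the log2 scale, and mmu-miR-181c-5p and mmu-miR-181d-5p higher, by 1.08 and 0.95. Since miR-181b-5p and miR-181d-5p differ at 1 base and miR-181a-5p and miR-181b-5p at 3, signal from one family member on another's probe was not tested, and values of single members carry that uncertainty.

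miR-204 and miR-211, which share a seed and are known from the pigment epithelium, the iris and other pigmented tissue, were higher in retina than in brain. mmu-miR-204-5p was at 605, 668 and 526 in retina, at 155, 116 and 116 in SCN, and at 92.7, 130 and 196 in LGN, a log2 difference of 2.19 ± 0.24 (adjusted p = 6.01e-05 in limma). mmu-miR-211-5p was at 162, 190 and 144 in retina and at no more than 4.51 on the 3 brain arrays that detected it (adjusted p = 1.60e-07 in limma). The size of its difference and the p-value depend on the floor at which the 3 other brain arrays were set. All retina arrays were above all brain arrays for both miRNAs, and the weaker arms mmu-miR-204-3p and mmu-miR-211-3p were detected in retina alone, at least 1.95 and 2.16 times the brain's detection limit. Retina was not the tissue of highest signal in the eye, since mmu-miR-204-5p reached 1198 to 1349 on the lens arrays and mmu-miR-211-5p reached 772 to 906 on the iris arrays. The part of adherent pigment epithelium in the retina values was not tested, and in these bulk samples fewer cells of a type and less RNA per cell cannot be told apart. The 5p sequences differ at 1 base of 22, so that each may carry some of the other's signal.

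The seed AUUGCAC of miR-92a and miR-25 was likewise higher in retina. mmu-miR-92a-3p was at 281, 243 and 239 in retina, at 37.5, 30.2 and 32.6 in SCN, and at 43.4, 48.3 and 60.5 in LGN, a log2 difference of 2.63 ± 0.14 (adjusted p = 9.01e-07 in limma). mmu-miR-25-3p was at 69.2, 71.8 and 64.1 in retina and at 15.8 to 24.3 on the 6 brain arrays, a log2 difference of 1.83 ± 0.15. Neither overlapped, although the 3 base differences between them leave some shared signal possible. miR-92a-3p belongs to the proliferation-linked miR-17/92 cluster at chr14:115044048-115044496, of which 3 of the 4 miRNAs tested were higher in retina, beside the background of 33.3%. miR-92a-3p and miR-19b-3p of this cluster also have hairpins at chrX:52741854-52742181, so that their signal cannot be assigned to either locus. miR-25-3p shares a hairpin cluster in Mcm7 with miR-93-5p and miR-106b-5p, of which 1 was lower in retina and 1 was not called.

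**Figure D2:**
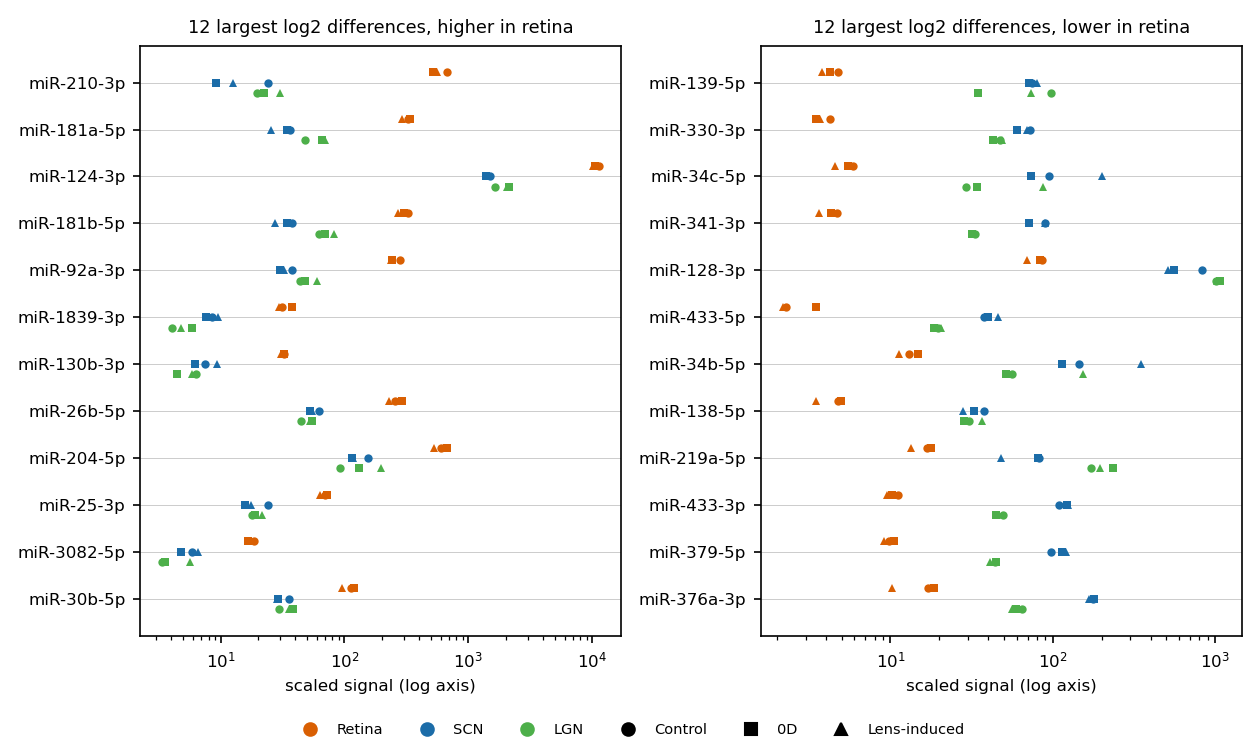
Scaled signal on a log axis for the miRNAs with the highest and lowest log2 differences between retina and brain among those detected on all 9 arrays, 1 point per array, with colour for the tissue and shape for the lens group. For mmu-miR-210-3p the retina arrays lie at 514 to 676 and the brain arrays at 9.27 to 30.2, and for mmu-miR-330-3p the order is turned, with retina at 3.46 to 4.27 and brain at 43.1 to 72.6.

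The remaining miRNAs highest above brain were mmu-miR-26b-5p, mmu-miR-1839-3p, mmu-miR-130b-3p, mmu-miR-3082-5p and mmu-miR-30b-5p. mmu-miR-26b-5p was at 227 to 294 in retina and at 45.0 to 61.8 in brain, and mmu-miR-30b-5p at 95.2 to 120 in retina and at 28.6 to 38.2 in brain. These ranges were apart, and the log2 differences of the 5 ran from 1.74 to 2.35. All 3 miRNAs tested with the seed AGUGCAA, that of miR-130b-3p, were higher in retina, where 33.3% of all miRNAs were, in a family chosen after its values were seen.

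The maternally expressed miRNAs of the imprinted Dlk1-Dio3 region, many of them abundant in neurons, formed the broadest block on the side of the brain. Of 49 listed members on the array, 35 were tested, and all 35 were lower in retina, with a median log2 difference of -2.25 (-2.79 with a floor of 0.1 for undetected values), beside the 50.9% of all miRNAs called lower and the median of -0.40. The other 14 were undetected on all 9 arrays. Because members that passed the filter only through brain had to be low in retina, the 18 members measured on all 9 arrays are the firmer group, and all 18 were lower, with a median of -2.27. mmu-miR-410-3p was at 48.6, 46.9 and 42.6 in retina, at 490, 485 and 553 in SCN, and at 209, 175 and 194 in LGN, a log2 difference of -2.77 ± 0.10 (adjusted p = 2.41e-07 in limma). mmu-miR-434-3p was at 93.4, 92.3 and 80.9 in retina, at 573, 601 and 583 in SCN, and at 302, 332 and 306 in LGN, a log2 difference of -2.27 ± 0.09. For both, the 3 tissues formed 3 separate levels with SCN the highest.

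This order held across the region. The summed signal of the listed members was 418 to 521 on the retina arrays, 1602 to 1736 on the LGN arrays and 3650 to 3929 on the SCN arrays, and 34 of the 35 members were higher in SCN than in LGN, with a median log2 difference of 1.25, where 52.0% of all miRNAs tested were higher in SCN and 10.8% lower and the median was 0.47. mmu-miR-494-3p was the exception, at -0.01. Among the miRNAs of the region that the list did not hold, mmu-miR-341-3p had the largest difference from brain, at 4.66, 4.32 and 3.61 in retina, at 89.6, 71.7 and 89.6 in SCN, and at 33.2, 32.0 and 32.1 in LGN, a log2 difference of -3.64 ± 0.12. Among listed members measured on all 9 arrays, mmu-miR-433-3p, mmu-miR-379-5p and mmu-miR-376a-3p had the largest differences, at -2.85, -2.81 and -2.79. The weakest members were mmu-miR-376c-3p at -0.24 (adjusted p = 0.0442), mmu-miR-496a-3p at -0.45 (adjusted p = 0.00402) and mmu-miR-494-3p at -0.64 (adjusted p = 0.0356), and the calls of all 3 were lost under some settings, among them all 24 arrays in 1 fit. By position, all 39 tested miRNAs with a RefSeq entry between the first and last listed hairpin, chr12:109585850-109743784 on the plus strand, were lower in retina, with log2 differences from -3.64 to -0.45. These ends are those of the list, and the next tested miRNA of the same run of hairpins, which ends at position 109747914, was the exception: mmu-miR-3072-5p was higher in retina, at 0.72. Of the 9 tested miRNAs of chromosome 12 outside the listed span, it was 1, with 6 lower and 2 not called. Against the rest of the eye, 29 of the 35 listed members were higher in the 3 neural tissues together, where 38.4% of 352 miRNAs were higher and 34.1% lower. As 6 of the 9 neural arrays were of brain, this count does not speak for the retina.

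**Figure D3:**
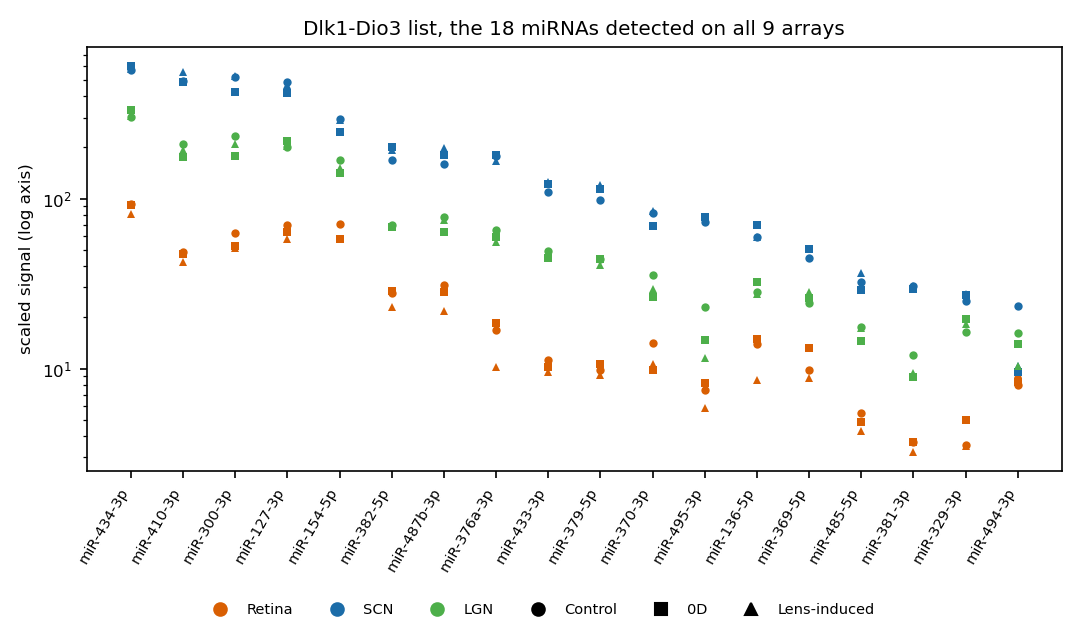
Scaled signal on a log axis (y axis) of the 18 Dlk1-Dio3 miRNAs detected on all 9 arrays (x axis), 1 point per array, with colour for the tissue and shape for the lens group. The points of retina lie below those of LGN and these below those of SCN for most of the members shown, with miR-494-3p as the member in which the tissues lie closest.

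The miRNAs of oligodendrocytes were the second block on the side of the brain, and here the order of the brain regions was turned. mmu-miR-219a-5p, which is required for myelination, was at 16.8, 17.7 and 13.4 in retina, at 82.0, 81.2 and 47.9 in SCN, and at 171, 234 and 197 in LGN, a log2 difference of -2.88 ± 0.15 (adjusted p = 1.07e-06 in limma). mmu-miR-338-3p was at 52.0, 60.4 and 45.4 in retina, at 227, 251 and 168 in SCN, and at 418, 643 and 573 in LGN, a log2 difference of -2.69 ± 0.15. The choroid arrays held mmu-miR-338-3p at 49.9 to 51.5, the sclera arrays at 22.8 to 42.8 and the iris arrays at 23.4 to 35.2. Its retina level was thus not particular to neural tissue, whereas mmu-miR-219a-5p was undetected in the rest of the eye. mmu-miR-219a-2-3p was undetected in retina and at 25.1 to 42.4 in SCN and 88.6 to 128 in LGN, at least 10.7-fold higher in brain. All 3 rose in steps from retina to SCN to LGN without overlap. They were lower in SCN than in LGN by -1.34 to -1.65 on the log2 scale, where 10.8% of all miRNAs tested were lower.

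Neuronal miRNAs did not lie on 1 side. Of 19 tested, 13 were lower in retina, 3 were higher (both arms of miR-124 and miR-129-5p) and 3 were not called, beside 50.9% lower and 33.3% higher of all miRNAs tested. All 19 were higher in the 3 neural tissues together than in the rest of the eye, where 38.4% of 352 miRNAs were. As 6 of the 9 neural arrays were of brain, this count does not speak for the retina. Of the 19, 16 were detected on all 9 arrays, whereas mmu-miR-137-3p and mmu-miR-383-5p were undetected on every retina array. mmu-miR-128-3p, a miRNA enriched in brain, was at 85.5, 83.7 and 69.1 in retina, at 827, 559 and 516 in SCN, and at 1013, 1073 and 1026 in LGN. The log2 difference was -3.34 ± 0.14 (adjusted p = 2.97e-07 in limma), yet the lowest retina array was above the highest of the 15 other ocular arrays, at 28.0. mmu-miR-137-3p, a miRNA with a role in neuronal maturation, was undetected in retina and was at 170, 173 and 165 in SCN and at 49.5, 34.1 and 41.5 in LGN, at least 14.2-fold higher in brain. It was also higher in SCN than in LGN, by 2.04 on the log2 scale.

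mmu-miR-139-5p, at 4.77, 4.26 and 3.80 in retina, was at 74.1, 71.5 and 80.1 in SCN and at 98.0, 34.4 and 73.2 in LGN, and had the largest log2 difference among the miRNAs lower in retina that were measured on all 9 arrays, -4.01 ± 0.24 (adjusted p = 1.96e-06 in limma). mmu-miR-330-3p was at 4.27, 3.46 and 3.70 in retina, at 72.6, 60.5 and 69.8 in SCN, and at 47.2, 43.1 and 48.9 in LGN, at -3.88 ± 0.09. The levels of both in retina were close to the detection limit. mmu-miR-138-5p, a miRNA of dendrites, was at 3.48 to 4.99 in retina and at 28.1 to 37.8 in brain, at -2.89 ± 0.16, with SCN and LGN at like levels. mmu-miR-153-3p was at 16.2 to 20.8 in retina, at 140 to 154 in SCN and at 48.8 to 65.0 in LGN, at -2.24 ± 0.11. mmu-miR-218-5p, known from motor neurons, was at 10.9 to 16.2 in retina and at 65.7 to 114 in brain, at -2.69 ± 0.14, and mmu-miR-326-3p at 6.78 to 8.33 in retina and at 23.7 to 94.9 in brain, at -2.67 ± 0.12. None of these overlapped between retina and brain.

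The pair miR-132 and miR-212, which neuronal activity induces through CREB, was lower in retina. mmu-miR-132-3p was at 89.5, 84.1 and 69.7 in retina, at 280, 282 and 320 in SCN, and at 245, 183 and 197 in LGN, a log2 difference of -1.61 ± 0.13 (adjusted p = 9.73e-06 in limma). mmu-miR-212-3p was at 9.86, 12.1 and 8.31 in retina and at 32.3 to 50.5 in brain, at -2.01 ± 0.13. The time of day at which the tissues were taken was not given in the sources used here.

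mmu-miR-7a-5p and mmu-miR-7b-5p differed between the brain regions far more than between retina and brain as a whole. mmu-miR-7a-5p was at 58.2, 67.1 and 49.7 in retina, at 571, 608 and 756 in SCN, and at 106, 15.2 and 18.8 in LGN. Retina was below SCN (log2 difference -3.47, adjusted p = 7.70e-04 in limma), whereas against LGN the difference was 0.89 (adjusted p = 0.196), with the retina arrays between the Control LGN array and the other two. SCN was above LGN by 4.36 on the log2 scale (adjusted p = 4.03e-04). The difference from both regions together, -1.29 ± 0.50 (adjusted p = 0.0425), was close to the threshold, did not reach it in the exact permutation test within lens groups (two-sided p = 0.481, where 0.037 is the smallest possible), and was lost without scaling. mmu-miR-7b-5p, which differs from it at 1 base, was at 169, 164 and 185 in SCN and at 31.0, 3.97 and 4.45 in LGN, again highest on the Control array of LGN. mmu-miR-148a-3p likewise lay between the regions, at 12.9, 15.4 and 11.0 in retina, at 22.9 or more on every SCN array, and on the Control array of LGN alone at 4.33. It was below SCN, by -0.95 on the log2 scale (adjusted p = 0.00282 in limma), and above LGN, by 2.11 (adjusted p = 3.67e-05), so that its difference from both together, 0.58, describes neither region.

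miR-34b and miR-34c, known from ciliated epithelia such as the ependyma and choroid plexus, were also lower in retina. mmu-miR-34b-5p was at 13.0, 14.8 and 11.3 in retina, at 145, 114 and 347 in SCN, and at 56.4, 51.2 and 153 in LGN, a log2 difference of -3.17 ± 0.32 (adjusted p = 4.33e-05 in limma). mmu-miR-34c-5p was at 5.90, 5.45 and 4.55 in retina, at 94.2, 73.8 and 201 in SCN, and at 29.2, 34.2 and 86.4 in LGN, at -3.74 ± 0.31. Retina did not overlap with brain, and within each brain region the Lens-induced array was the highest for both miRNAs.

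By detection alone, the 20 miRNAs measured on all 6 brain arrays and no retina array included, after mmu-miR-137-3p and mmu-miR-219a-2-3p, mmu-miR-409-5p (at least 3.96-fold), mmu-miR-221-3p (3.67), mmu-miR-409-3p (3.51), mmu-miR-383-5p (2.91), mmu-miR-380-3p (2.59) and mmu-miR-431-5p (2.27). The 12 others had bounds below 2-fold. mmu-miR-221-3p was at 27.4, 26.1 and 25.1 in SCN and at 18.3, 16.7 and 18.3 in LGN, and 4 of the 8 named lie in the Dlk1-Dio3 list. On the side of the retina, only 5 of the 15 had a bound of 2-fold or more, namely the 3 of the sensory cluster, mmu-miR-3078-3p (2.35) and mmu-miR-211-3p (2.16). The others were near the detection limit, so that their absence from the brain arrays says little about a difference.

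Retina and brain shared 64 miRNAs, in the sense that the 95% interval of the log2 difference lay within 2-fold in both directions among the 173 measured on all 9 arrays. Shared here means close and not equal, since only 26 of the 64 were not called between retina and brain, and the rest were called with a small difference. Of these 64, 32 were higher in the 3 neural tissues than in the other ocular tissues in a second fit over all 24 arrays, 20 were lower and 12 were not called, beside 38.4% higher and 34.1% lower of all 352 miRNAs tested there. The 9 arrays and the lens-group block are common to both fits, so the values are given side by side and not as independent evidence. For 11 of the 32, the lowest of the 9 neural arrays was above the highest of the 15 other ocular arrays. mmu-miR-9-3p, an arm of the hairpin that acts in neural progenitors and neurons, was at 794, 868 and 746 in retina, at 1327, 1417 and 1411 in SCN, and at 1049, 1199 and 1279 in LGN. Its log2 difference from brain was -0.67 (95% interval -0.90 to -0.44), and its difference between neural and other ocular tissues was 5.14, with 191 as its highest signal on those 15 arrays, in choroid. The guide arm mmu-miR-9-5p was at 55.2, 67.0 and 51.6 in retina, at 73.6, 89.8 and 74.5 in SCN, and at 61.0, 77.2 and 72.4 in LGN, with -0.37 (-0.59 to -0.14) and 2.78 for the same differences. Both arms were slightly lower in retina, but the sign of mmu-miR-9-5p turned without scaling (0.03) and with quantile normalization (0.06), and mmu-miR-9-3p was no longer called without scaling (-0.27, adjusted p = 0.109).

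mmu-miR-129-2-3p, from a brain-enriched family, was at 424, 443 and 352 in retina, between 521, 499 and 512 in SCN and 277, 296 and 238 in LGN. Its log2 difference from brain was 0.13 (95% interval -0.11 to 0.36), with a neural difference of 5.04 and 24.8 as the highest other ocular signal. The mean of both brain regions thus hid opposite differences, below SCN (adjusted p = 0.0274 in limma) and above LGN (adjusted p = 0.00208). mmu-miR-129-1-3p was at 58.4, 64.9 and 47.4 in retina, 43.4 to 53.3 in SCN and 68.4 to 82.5 in LGN, with the regions in the other order. mmu-miR-598-3p, mmu-miR-342-3p, mmu-miR-361-5p, mmu-miR-331-3p, mmu-miR-301a-3p and mmu-miR-29c-5p completed the 10 shared miRNAs with the highest neural difference, with neural differences from 1.79 to 3.30.

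**Figure D4:**
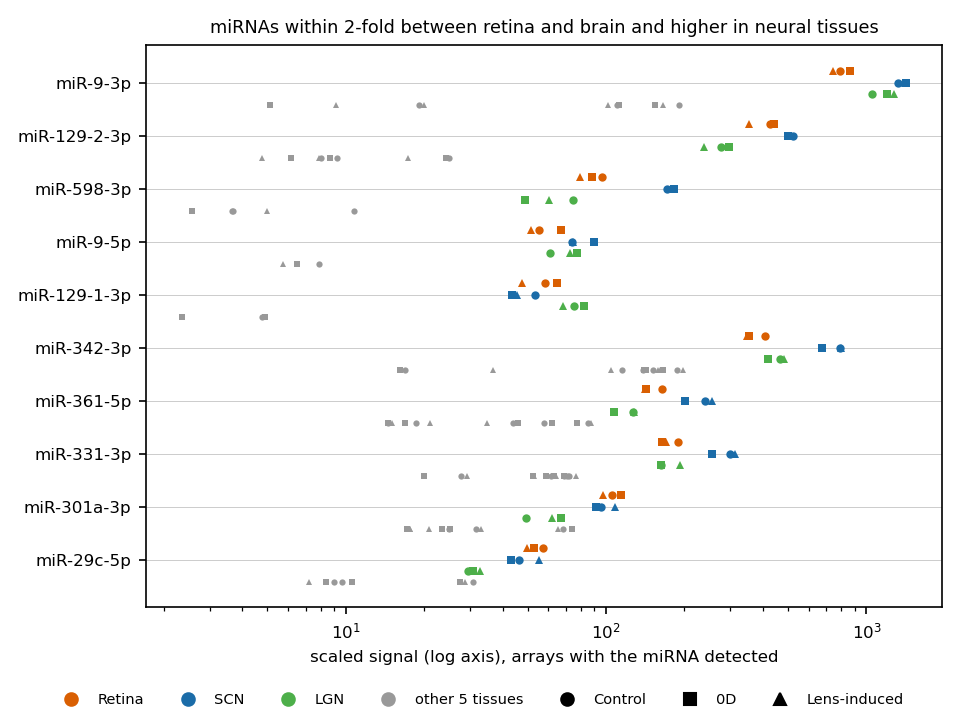
Scaled signal on a log axis for the 10 miRNAs shared by retina and brain within 2-fold with the highest neural difference, 1 point per array, with the other ocular arrays that detected the miRNA in grey below the 3 neural tissues. For miR-129-2-3p the 9 neural arrays lie at 238 to 521 and no other ocular array exceeds 24.8.

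The let-7 family, known for its rise with differentiation, had 3 of 9 members higher in retina, 3 lower and 3 not called, with the share higher that of all miRNAs tested (33.3%) and 50.9% of all lower. mmu-let-7f-5p was at 764, 924 and 688 in retina and at 421 to 594 in brain (log2 difference 0.63), and mmu-let-7e-5p at 531, 500 and 491 in retina and at 564 to 1192 in brain (-0.71). The members share 1 seed and differ by few bases, and without scaling let-7c, let-7e and let-7i were no longer called, and with quantile normalization mmu-let-7a-5p went from 0.32 to -0.09 and was called lower (adjusted p = 0.033), so that no direction is given for the family.

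The miR-29 family, whose known targets include collagens, was split between its members. mmu-miR-29c-3p was at 1391, 1358 and 1073 in retina, at 815, 871 and 849 in SCN, and at 511, 533 and 493 in LGN, a log2 difference of 0.94 ± 0.10 (adjusted p = 6.19e-05 in limma). mmu-miR-29b-3p was at 294, 309 and 220 in retina, at 767, 894 and 753 in SCN, and at 401, 423 and 372 in LGN, at -1.06 ± 0.10 (adjusted p = 3.08e-05). Neither overlapped, in opposite directions, although both have a hairpin at chr1:195037091-195037621. miR-29b-3p also has a second hairpin on chromosome 6 with the same mature sequence, so that its signal cannot be assigned to either locus. The mature sequences of miR-29b-3p and miR-29c-3p differ at 3 of the first 22 bases. The call of mmu-miR-29a-3p (-0.36) depended on the scaling.

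Other families and clusters, chosen after their values were seen, are given beside the 33.3% of all miRNAs higher and 50.9% lower in retina. The 3 tested miRNAs of the miR-23a/27a/24 cluster at chr8:84208563-84208896 were lower in retina, by -1.16 to -0.83 on the log2 scale. Of these, miR-24-3p also has a hairpin on chromosome 13. Of 6 tested miRNAs with the seed AGCAGCA, 3 were higher, 2 were not called and mmu-miR-322-5p was lower, at 5.15, 5.33 and 5.57 in retina and at 25.4 to 40.0 in brain. Of 4 with the seed GUAAACA, 3 miR-30 members were higher and mmu-miR-384-5p was lower, at 7.22, 8.43 and 5.66 in retina, at 17.3, 26.9 and 24.4 in SCN, and at 7.89, 9.71 and 8.41 in LGN. Members with the same seed thus lay on both sides of the difference.

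Marker lists of other cell types are given as levels of the listed miRNAs, and do not measure the amount of other tissue. In the rest of the eye, the lens arrays held the highest levels of the muscle-listed mmu-miR-133a-3p (267 to 315). They also held the highest levels of the epithelium-listed mmu-miR-31-5p (321 to 370). The red cell miRNA mmu-miR-451a was at 11.6, 13.3 and 11.0 in retina, at 75.6, 56.3 and 57.6 in SCN, and at 59.7, 60.4 and 65.3 in LGN (log2 difference -2.38), and the endothelial mmu-miR-126a-3p at 67.5 to 75.1 in retina and at 160 to 215 in brain (-1.37). Both were lower on every retina array than on every brain array, and their part in other differences was not tested. Against this, mmu-miR-16-5p, which blood cells hold but so do most cells, was higher in retina, at 108 to 131 against 35.0 to 88.7. Of the 9 surface epithelium miRNAs, 7 were undetected on all 9 arrays, including miR-205 and the miR-200 family, while mmu-miR-184-3p was at 70.6, 32.6 and 40.7 in retina and mmu-miR-31-5p was measured in LGN alone, at 11.0 to 23.8. Of 3 striated muscle miRNAs tested 1 was lower in retina than in both regions together, where 50.9% of all miRNAs tested were. Against LGN all 3 were lower, where 112 of 279 miRNAs were, with mmu-miR-133a-3p at -1.51 and mmu-miR-133b-3p at -1.35 on the log2 scale. All 3 were also lower in SCN than in LGN, where 10.8% of all miRNAs tested were. Their summed signal was 37.6 to 47.9 on the LGN arrays, 4.26 to 22.2 on the SCN arrays and 12.7 to 14.6 on the retina arrays, so that muscle miRNAs, like mmu-miR-31-5p, stood out in LGN, and their part in the LGN values was not tested. No smooth muscle miRNA was tested. The immune miRNAs mmu-miR-223-3p and mmu-miR-150-5p were undetected in retina and at most 12.5 in brain.

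**Figure D5:**
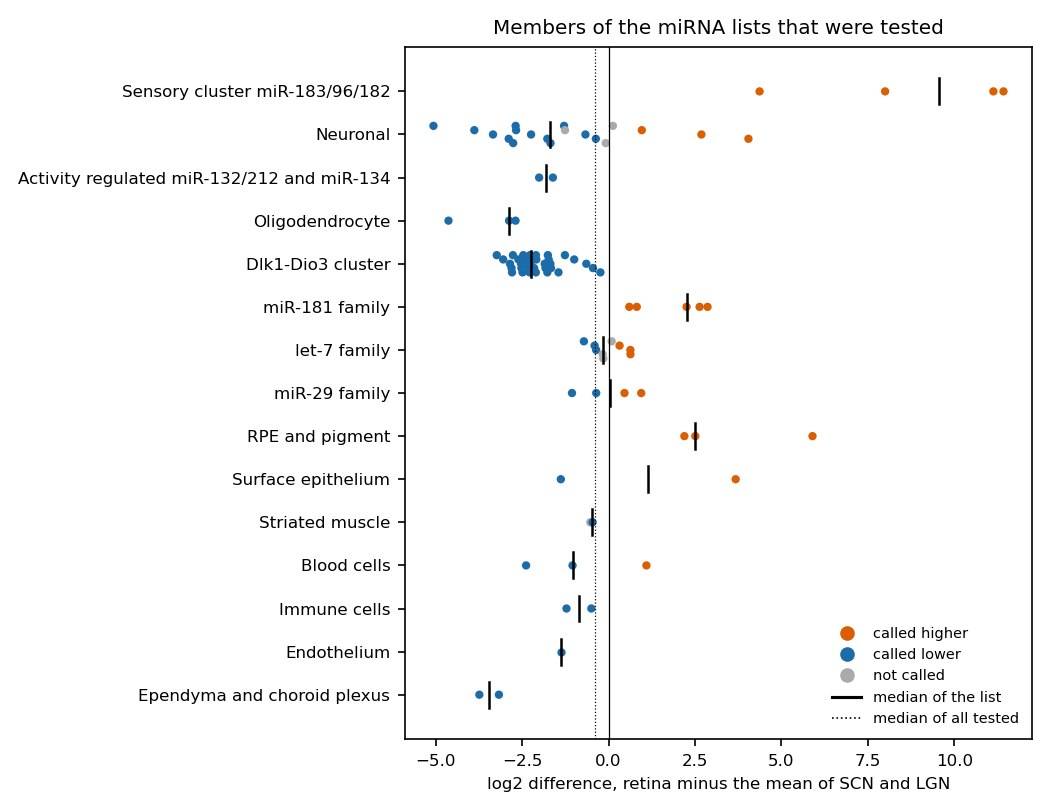
Log2 difference, retina minus the mean of SCN and LGN (x axis), of each tested member of each miRNA list (rows), 1 point per miRNA, with the call at an adjusted p under 0.05 shown by colour, a bar at the median of each list and a dotted line at the median of all miRNAs tested. The sensory cluster, RPE and miR-181 lists lie to the right of 0 and the Dlk1-Dio3 and oligodendrocyte lists to the left, while the neuronal list spans both sides.

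The 3 tissues were also compared by the size of their differences, as a description with no test. The median absolute log2 difference over the 173 miRNAs measured on all 9 arrays was 1.02 for retina and SCN, 0.89 for retina and LGN, and 0.59 for SCN and LGN. In limma's contrasts of retina with each region, at an adjusted p under 0.05, 77 of 279 miRNAs were higher and 149 lower in retina than in SCN. Against LGN, 98 were higher and 112 lower. These 2 comparisons share the retina arrays.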

How the data were processed

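The authors labelled total RNA with Cy3 and hybridised it to one-color Agilent mouse miRNA arrays, and Agilent Feature Extraction 10.7.1.1 gave the deposited spot tables. Deposited values are linear intensity values (total probe signal and its error), background-subtracted and not normalized between arrays. The deposited normalized table was not used, because its column names do not settle the samples.

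For each miRNA, unique probes with a signal above 3 times their error were summed. Arrays were scaled to an equal 75th percentile, taken from the 79 miRNAs that all 24 arrays detected, undetected and lower values were set to the highest of the 9 arrays' lowest detected signals (2.50; 9.93 in the fit over 24 arrays), and log2 was taken. limma 3.58.1 in R 4.3.3 fitted tissue with the lens group, which the labels share across tissues, as a block. Tested were 279 miRNAs detected on at least 3 of 9 arrays, and 352 on at least 3 of 24, with Benjamini-Hochberg adjustment and a threshold of 0.05. The exact permutation test within lens groups had 27 arrangements. Sequences came from RefSeq tables read with Python 3.11.15 and pandas 2.3.3.

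Named miRNAs are the 12 largest rises and falls among called miRNAs detected on all 9 arrays, the 8 largest bounds on each side among those detected on 1 side only, the 10 shared miRNAs with the largest neural difference, and list members. Members and lists were chosen with earlier results of these data known, and miR-139-5p and others outside the lists enter by this rule, except miR-384-5p, miR-3072-5p, miR-148a-3p and the further list-free seed and cluster counts, chosen after their values were seen. The 3 arrays per tissue limit the precision, and nothing says that they are separate animals beyond the lens groups. Alternatives were the scaling, floor, background correction (normexp on median spot signals), filter, block, brain reference, variance model and each array or lens group left out. The fits were tested on simulated data.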

Additional observations from a re-analysis of the deposited data

How the results depend on the processing

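The 12 largest rises and 12 largest falls, and the neural differences of the 10 shared miRNAs, kept their direction and their side of the threshold under all alternatives run. Calls turned for mmu-let-7a-5p under quantile normalization (-0.09) and for mmu-miR-148a-3p against SCN alone (-0.95) and with all 24 arrays in 1 fit (-0.28), and the calls of mmu-miR-7a-5p, mmu-miR-494-3p, mmu-miR-376c-3p and mmu-miR-181d-5p were lost under several settings. The counts of 93 higher and 142 lower became 53 and 92 when only the 173 miRNAs detected on all 9 arrays were tested, which is fewer tests by construction. With normexp background correction, 113 miRNAs rather than 64 were shared within 2-fold, and the neural comparison gave 77 higher and 241 lower in place of 135 and 120 (the cause was not tested). Without scaling the counts were 109 and 113 (179 and 112 in the neural comparison), with quantile normalization 103 and 123, and with the percentile over the 9 arrays 105 and 126, as the median of all miRNAs moved by 0.40, 0.27 and 0.28. The percentile over all miRNAs equalled no scaling. With all 24 arrays in 1 fit they were 68 and 105. With no replicate block, that is without the lens group in the fit, 90 miRNAs were higher, 138 lower and 57 shared, and 227 of 235 calls were kept. Leaving out 1 array gave 80 to 95 higher and 131 to 148 lower, and leaving out 1 lens group 76 to 93 and 126 to 142. Arrays near the detection limit bound what can be said of miRNAs detected in 1 tissue only.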
